A study of Mus musculus with 4 samples.

Results

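Chemokine genes that lung epithelium is known to express were examined in AT2 cells, which make surfactant and renew the alveolus. They were picked by symbol, under a rule that uses no measured value, but with earlier results of these data known. They are Cxcl1, Cxcl2, Cxcl5, Cxcl10, Cxcl12, Cxcl15, Cxcl16, Cxcl17, Ccl20 and Cx3cl1. All 10 were found among the 40092 genes of the deposited table, and 9 had enough counts to be tested. The exception was Cxcl16, which held at most 4 counts in any library.

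There were 2 Ctrl libraries (Alkbh5flox/+; Sftpc-CreERT2; Rosa26-mTmG) and 2 A5-CKO libraries (Alkbh5flox/flox; Sftpc-CreERT2; Rosa26-mTmG) from littermates on a C57BL/6 background, whose age the sources used here do not give. Alkbh5 encodes a demethylase that removes m6A from RNA. Both groups received tamoxifen and then bleomycin, a drug that injures the alveoli, and GFP+ cells were sorted on day 14. Both groups also carried Sftpc-CreERT2, a recombinase driven by the promoter of an AT2 gene, and the Rosa26-mTmG reporter that turns recombined cells green. The controls were thus not wild type, because they could lose 1 copy of Alkbh5. The GFP+ gate can also hold recombined cells that had since left the AT2 state.

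Chemokines are small secreted proteins that guide white blood cells along a concentration gradient by binding to receptors on their surface. In the alveolus, epithelial chemokines call neutrophils, monocytes and lymphocytes into the air space after injury. CXC chemokines with a Glu-Leu-Arg motif, among them Cxcl1, Cxcl2, Cxcl5 and Cxcl15, attract neutrophils, and the receptor for the first 3 is CXCR2. The others act on other cells, as with Cxcl10 on T cells through CXCR3, Cxcl12 through CXCR4 and Ccl20 through CCR6.

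The libraries held from 18144865 to 20811757 counts. A normalized count (CPM) is a count scaled to counts per 1000000 of the library size after TMM scaling, which corrects for differences in library makeup. A count of 3, taken as the limit that a count of 0 allows, equals 0.128 to 0.177 CPM and covers counting error only. Alkbh5 itself was at 81.7 and 152 CPM in Ctrl 1 and Ctrl 2 and at 19.3 and 36.6 in A5-CKO 1 and A5-CKO 2, in the direction of the labels. Sftpc, the AT2 gene that drives the recombinase, was between 7856 and 16371 CPM in every library, and the epithelial gene Epcam was between 235 and 274. Genes of other cells were present as well. The leukocyte gene Ptprc lay between 22.5 and 84.3 CPM, the fibroblast gene Col1a1 between 21.3 and 386, and the endothelial gene Pecam1 between 29.7 and 50.2. These are bulk libraries, in which fewer cells of a type and less RNA per cell cannot be told apart. The labels do not say that the libraries of a genotype came from separate mice, so p-values measure the spread between these libraries, which may be technical. For a single value, 2 against 2 libraries allow no two-sided permutation p below 0.333.

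Among the chemokines chosen here, Cxcl15 and Cxcl17 had the highest mean levels over the libraries. Cxcl15, also called lungkine, attracts neutrophils and is found in the lung epithelium. It was at 248 and 375 CPM in Ctrl 1 and Ctrl 2 and at 221 and 204 in A5-CKO 1 and A5-CKO 2. Both A5-CKO libraries were below both Ctrl libraries, by a narrow margin in the case of Ctrl 1. The log2 fold change of A5-CKO over Ctrl was -0.55 (SE 0.34), with an adjusted p of 0.586 by the quasi-likelihood test of edgeR over all 16661 genes tested. Cxcl17 is a chemokine of mucosal surfaces that attracts monocytes and dendritic cells. It was at 92.8 and 81.7 CPM in Ctrl and at 59.6 and 73.4 in A5-CKO. These ranges did not overlap, and the log2 fold change was -0.39 (SE 0.29, adjusted p = 0.641 in edgeR). With total counts only, without TMM scaling, the log2 fold changes of Cxcl15 and Cxcl17 were -0.22 and -0.08. Cxcl17 lies wholly inside the long non-coding gene 4732471J01Rik, which held 189 to 405 counts. Whether the counting used strand is not given in the sources used here, so reads shared by the 2 genes are uncertain.

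**Figure D1:**
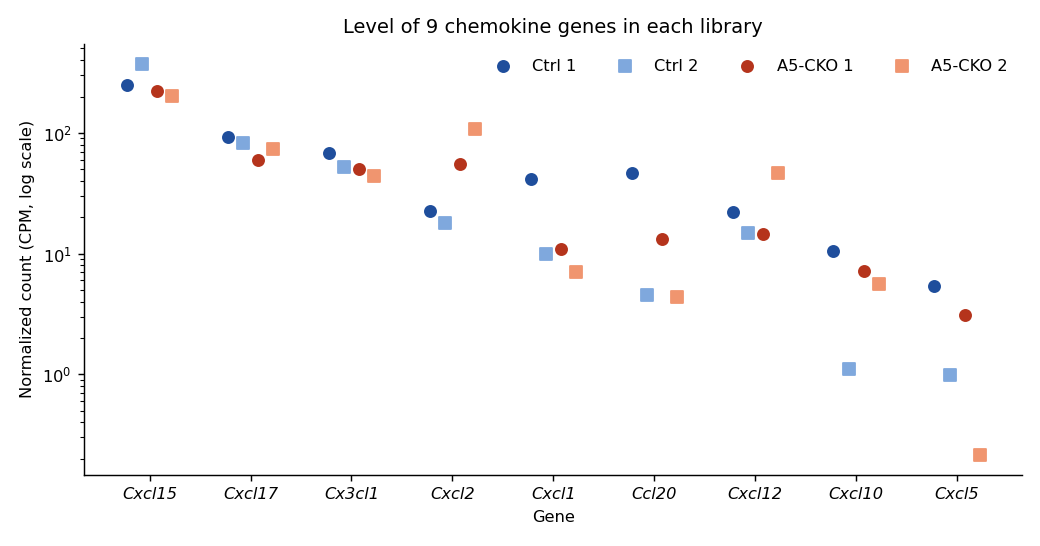
Normalized counts (CPM, log scale) of 9 chemokine genes, with 1 point for each library, circles for replicate 1 and squares for replicate 2, blue for Ctrl and red for A5-CKO. Cxcl15 stays between 204 and 375 CPM, Cxcl2 is the gene whose A5-CKO points both lie above its Ctrl points, and Cxcl16 is left out because it was at 0 in Ctrl 2.

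Levels of different genes were compared per length, as CPM per kilobase of the longest coding transcript in GENCODE M21. On this scale the mean over the 4 libraries was 123 for Cxcl15, 101.0 for Cxcl17, 27.2 for Cxcl2, 18.3 for Cxcl1, 16.1 for Cx3cl1, 12.1 for Ccl20, 4.52 for Cxcl10, 4.36 for Cxcl12 and 1.53 for Cxcl5. Cxcl16 was left out of this order, since its counts cannot be read as a level (described with Cx3cl1). The order of neighbours was the same in all 4 libraries only for Cxcl17 above Cxcl2 and Cxcl12 above Cxcl5. Cxcl15 was above Cxcl17 in 2 libraries, and Cxcl2 was above Cxcl1 in 2 libraries, the A5-CKO ones. Cxcl1 was above Cx3cl1 in 1 library, Ctrl 1, so this pair and the other pairs in the middle of the order did not differ beyond their spread.

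Cxcl2 and Cxcl1, both ligands of CXCR2 and both known as early response genes of inflammation, had estimates of opposite sign, and neither passed the test over all genes. Ctrl 1 held 383 counts of Cxcl2 (22.6 CPM), Ctrl 2 held 309 (18.0 CPM), A5-CKO 1 held 1209 (54.7 CPM) and A5-CKO 2 held 2505 (107 CPM). Both A5-CKO libraries were well above both Ctrl libraries, although they differed from each other by 1.96-fold. Ctrl averaged 20.3 ± 3.30 CPM (SD, n = 2) and A5-CKO 80.9 ± 37.0 CPM (SD, n = 2), a ratio of 3.98. The log2 fold change was 1.99 (SE 0.41), with an unadjusted p of 0.00182 and an adjusted p of 0.528 in the edgeR model, above the threshold of 0.05. In DESeq2, the tool of the study's methods, the adjusted p was 0.0130 with default filtering (log2 fold change 2.03). Across all 15 alternatives the adjusted p of Cxcl2 ranged from 0.00793 to 0.878, and its log2 fold change was positive with an unadjusted p under 0.05 in each of them, with its lowest value of 1.40 when A5-CKO 2 was left out and its highest of 2.39 when A5-CKO 1 was.

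Cxcl1 was at 41.7 and 9.89 CPM in Ctrl 1 and Ctrl 2 and at 10.9 and 7.05 in A5-CKO 1 and A5-CKO 2. Ctrl 1 was high and the other 3 libraries were close to one another, so the genotypes overlapped. The log2 fold change was -1.52 (SE 0.68, adjusted p = 0.528 in edgeR), and it was -0.09 without Ctrl 1 and -2.26 without Ctrl 2. The lower mean in A5-CKO thus rested on Ctrl 1.

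The ratio of Cxcl2 to Cxcl1 counts within a library needs no scaling between libraries. It was 0.542 in Ctrl 1 and 1.82 in Ctrl 2, against 5.02 in A5-CKO 1 and 15.2 in A5-CKO 2. The lowest A5-CKO ratio was 2.76 times the highest Ctrl ratio, and the geometric mean was 8.79-fold higher in A5-CKO, with 4.80-fold when Ctrl 1 was left out and 16.1-fold when Ctrl 2 was. The ratio of Cxcl2 to Cxcl5 counts was 4.21, 18.2, 17.8 and 501 in the library order Ctrl 1, Ctrl 2, A5-CKO 1, A5-CKO 2, so there the genotypes overlapped. They also overlapped for the other ratios computed, Cxcl1 over Cxcl5, Ccl20 over Cxcl1 and Cxcl17 over Cxcl15. Among the ratios computed, Cxcl2 over Cxcl1 thus divided the genotypes, as Cxcl2 itself did. Such a division is not rare, since the normalized counts of 43.8% of all genes tested did not overlap between the genotypes. Cxcl1 was more abundant than Cxcl2 by count only in Ctrl 1. With the 4 values of Cxcl2 over Cxcl1 an exact permutation test gives its smallest possible two-sided p, 0.333.

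**Figure D2:**
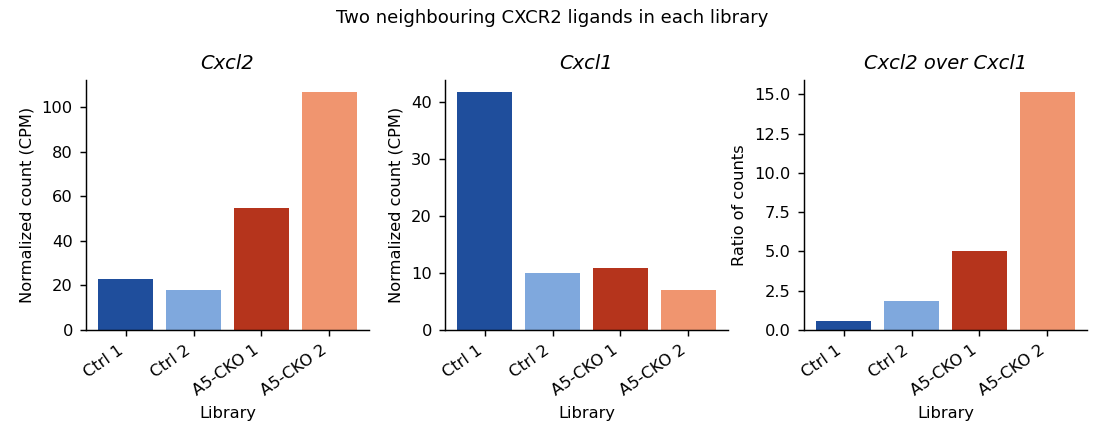
Bars from 0 for the normalized count (CPM) of Cxcl2, the normalized count of Cxcl1, and the ratio of Cxcl2 to Cxcl1 counts in each of the 4 libraries. Cxcl2 and the ratio are higher in both A5-CKO libraries, and Cxcl1 is high in Ctrl 1 alone.

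These genes lie close together on chromosome 5, Cxcl1 at chr5:90891245-90893121 and Cxcl2 at chr5:90903899-90905938 (GRCm38.p6), 10.8 kb apart. Their promoters are shown because these neighbours varied differently over the libraries while sharing a stretch of letters. Of the 10 genes, 7 had a promoter in the RefSeq-derived table for GRCm38.p6, which spans 250 bases before to 50 after the start. NF-kB, a factor that drives many inflammatory genes, binds sites such as GGG, any 3 bases, then TTCC. A search of both strands found this form in 4 of the 7 promoters (Cxcl1, Cxcl2, Cxcl10 and Ccl20), against 5.56% of all 32851 promoters in the table. The form GAAA, any 2 bases, then GAAA, which matches the interferon-stimulated response element, was found in 1 of the 7, that of Cxcl10, against 3.44% of all promoters. The 120 bases just before the start of Cxcl2 (chr5:90903779-90903898, plus strand), Cxcl1 (chr5:90891125-90891244, plus strand) and Ccl20 (chr1:83116646-83116765, plus strand) follow, with bases -230 to -111 of Cxcl10 (chr5:92349000-92349119, minus strand). Capitals mark both forms on either strand, and matches that overlap run together. A second NF-kB match of Cxcl10, at -104 to -95, lies outside the stretch shown.
Cxcl2: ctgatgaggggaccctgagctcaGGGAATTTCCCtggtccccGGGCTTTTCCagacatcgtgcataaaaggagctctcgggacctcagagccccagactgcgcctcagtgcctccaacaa
Cxcl1: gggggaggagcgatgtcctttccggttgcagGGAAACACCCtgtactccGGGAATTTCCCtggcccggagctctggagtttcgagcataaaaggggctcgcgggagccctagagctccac
Ccl20: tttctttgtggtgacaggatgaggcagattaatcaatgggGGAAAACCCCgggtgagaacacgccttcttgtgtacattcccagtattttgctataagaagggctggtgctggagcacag
Cxcl10: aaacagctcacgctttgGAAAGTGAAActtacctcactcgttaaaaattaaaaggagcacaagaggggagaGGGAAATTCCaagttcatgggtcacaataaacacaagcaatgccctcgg
Cxcl2 and Cxcl1 shared the same run GGGAATTTCCC, which begins at position -97 of Cxcl2 and -71 of Cxcl1. Each also held 1 further match, on the 3′ side of that run in Cxcl2 and on the 5′ side in Cxcl1. A match describes letters only and is not a measured binding site.

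Cxcl5 and Ccl20 followed the same order of libraries as Cxcl1. Cxcl5, the other CXCR2 ligand of the group, is made by AT2 cells in the inflamed lung, and it held few reads here, 91 and 17 counts in Ctrl and 68 and 5 in A5-CKO. This is 5.38, 0.989, 3.08 and 0.214 CPM in the library order Ctrl 1, Ctrl 2, A5-CKO 1, A5-CKO 2. The libraries of a genotype differed by 5.44-fold in Ctrl and 14.4-fold in A5-CKO, so replicate 1 was high and replicate 2 low in each. Its log2 fold change was -0.95 (SE 1.24, adjusted p = 0.803 in edgeR), and it turned to 0.76 without Ctrl 1.

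Ccl20, which draws CCR6-bearing dendritic cells and lymphocytes to epithelia, was at 46.7 and 4.54 CPM in Ctrl and at 13.2 and 4.40 in A5-CKO. Ctrl 1 again stood above the rest, and the 2 Ctrl libraries differed by 10.3-fold. Its estimated log2 fold change was -1.54 (SE 1.01, adjusted p = 0.603 in edgeR), and it turned to 1.00 without Ctrl 1. Cxcl1, Cxcl5 and Ccl20 all ranked from high to low in the order Ctrl 1, A5-CKO 1, Ctrl 2 and A5-CKO 2, an order that does not divide the genotypes. Cxcl2 followed another order, with A5-CKO 2 highest and Ctrl 2 lowest.

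**Figure D3:**
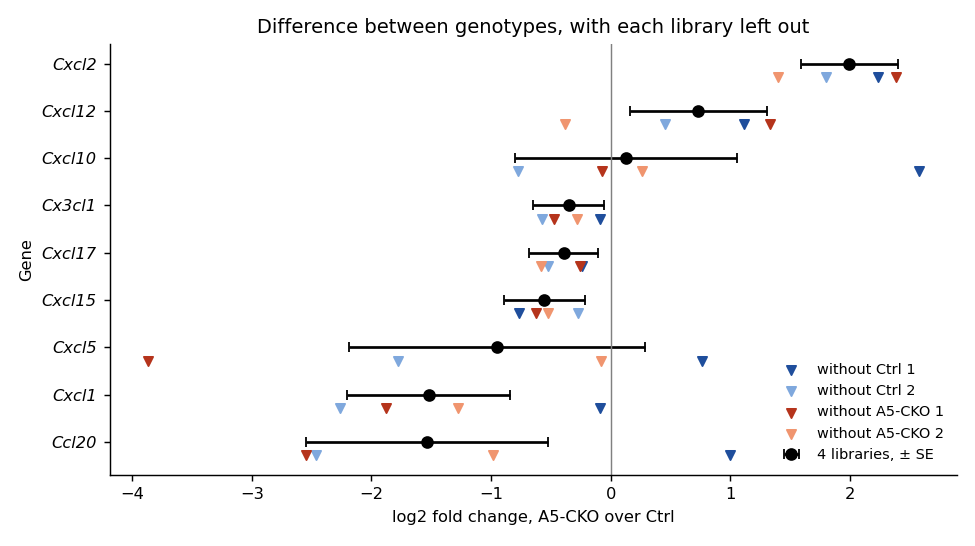
The log2 fold change of A5-CKO over Ctrl for 9 chemokine genes, with black points and bars for the edgeR estimate from 4 libraries ± SE and triangles for the estimates with each library left out. Cxcl2 stays between 1.40 and 2.39, whereas Ccl20 spans -2.55 to 1.00 and Cxcl5 spans -3.87 to 0.76.

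Cxcl10, an interferon-induced ligand of CXCR3 on T cells, was at 10.6 and 1.11 CPM in Ctrl 1 and Ctrl 2 and at 7.15 and 5.60 in A5-CKO 1 and A5-CKO 2. Both A5-CKO values lay between the 2 Ctrl values. This gave a log2 fold change of 0.13 (SE 0.93, adjusted p = 0.971 in edgeR), and it ranged from -0.78 without Ctrl 2 to 2.58 without Ctrl 1. Cxcl10 lies inside the gene Art3, which held 4, 10, 2 and 24 counts in the library order Ctrl 1, Ctrl 2, A5-CKO 1, A5-CKO 2. Cxcl10 itself held 179, 19, 158 and 131 counts in that order. How many reads are uncertain between the genes cannot be read from these counts. Of the 12 interferon response genes on a separate list, none had an unadjusted p under 0.05 in the edgeR fit, 3 were estimated higher and 9 lower in A5-CKO, and their median log2 fold change was -0.24.

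Cxcl12 keeps CXCR4-bearing cells in place and is known to come mainly from stromal and endothelial cells of the lung. It was at 22.0 and 14.9 CPM in Ctrl and at 14.5 and 46.8 in A5-CKO. A5-CKO 2 was high and the other 3 libraries were alike, and the log2 fold change of 0.73 (SE 0.57, adjusted p = 0.658 in edgeR) turned to -0.38 without A5-CKO 2. The summed level of 9 fibroblast markers was 448, 205, 120 and 1036 CPM in the library order Ctrl 1, Ctrl 2, A5-CKO 1, A5-CKO 2, with the highest and the lowest sum in the same libraries as for Cxcl12, and none of the 9 was at 0. The collagen genes Col1a1, Col1a2 and Col3a1 made up most of this sum. Other markers on the list went against it, as with Inmt at 48.3 and 52.7 CPM in Ctrl and at 22.5 and 10.3 in A5-CKO (log2 fold change -1.62, SE 0.44, adjusted p = 0.528 in edgeR). The part of fibroblasts in the value of Cxcl12 was not tested. Cxcr4, its receptor, was at 28.7 and 15.1 CPM in Ctrl and at 39.1 and 55.4 in A5-CKO, or 1.11 as a log2 fold change (SE 0.42, adjusted p = 0.528 in edgeR), and the estimate was 1.71 without Ctrl 1 and 0.68 without Ctrl 2.

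Cxcl16 and Cx3cl1 are the members made as membrane-anchored proteins, which ADAM10 and ADAM17 release. Cx3cl1, which acts on monocytes and other leukocytes that carry CX3CR1, varied little. It was at 67.8 and 52.0 CPM in Ctrl and at 50.3 and 43.5 in A5-CKO, so that both A5-CKO libraries lay just below both Ctrl libraries. The estimated log2 fold change was -0.35 (SE 0.30, adjusted p = 0.686 in edgeR), and it was -0.04 with total counts only. In all, 1327 bases of the Cx3cl1 span are shared with the non-coding gene Gm51543, which held 417 to 663 counts, so some reads are uncertain between the 2.

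Cxcl16, the ligand of CXCR6, held 4, 0, 1 and 1 counts in the library order Ctrl 1, Ctrl 2, A5-CKO 1, A5-CKO 2, and no fold change is given for it. These counts cannot be read as a lack of the transcript. Psmb6, a proteasome subunit that every cell needs, lies 65.3 kb away on chromosome 11 and was listed at 0 in all 4 libraries, while the 13 other genes Psma1 to Psma7 and Psmb1 to Psmb7 held 896 to 5316 counts. Gabarap, an autophagy gene 459.4 kb to the other side, held at most 2 counts. The cause was not tested. Cxcl16 also shares 552 bases with Zmynd15, which held at most 9 counts.

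The 9 genes tested showed no shared direction. In the edgeR fit 3 were estimated higher and 6 lower in A5-CKO, with a median log2 fold change of -0.39 against -0.02 over all genes tested. With total counts only, the median of all genes moved to 0.30 and that of the 9 to -0.08. The median of the 9 turned to 0.76 without Ctrl 1. None of the 9 passed an adjusted p of 0.05, and neither did any other gene (0% called). At an unadjusted p under 0.05 there was 1 of the 9, Cxcl2, against 9.18% of all genes tested with 4.48% higher and 4.71% lower in A5-CKO, and DESeq2 with default filtering gave 0.385% of genes an adjusted p under 0.05. The libraries of the genotypes did not overlap for 4 of the 9 (Cxcl2 was higher in A5-CKO, and Cxcl15, Cxcl17 and Cx3cl1 were lower), against 43.8% of all genes tested (20.3% higher and 23.5% lower), so as a count this was close to the background. These levels follow TMM factors of 0.933 and 0.860 in Ctrl 1 and Ctrl 2 and of 1.11 and 1.13 in A5-CKO 1 and A5-CKO 2. With total counts only, the log2 fold changes of Cxcl15, Cxcl17 and Cx3cl1 were -0.22, -0.08 and -0.04, so their estimates depended on the scaling.

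The sum of the 10 genes was 558 CPM in each Ctrl library and 435 and 492 CPM in A5-CKO 1 and A5-CKO 2. Before any scaling, the same sum came to 9441 counts for Ctrl 1, 9594 for Ctrl 2, 9599 for A5-CKO 1 and 11509 for A5-CKO 2. The lower A5-CKO sums in CPM thus depended on the TMM scaling. The makeup of that sum varied more than its size. Cxcl15 took 44.5% of the counts in Ctrl 1 (exact 95% interval 43.5% to 45.5%), 67.2% in Ctrl 2 (66.3% to 68.1%), 50.9% in A5-CKO 1 (49.9% to 51.9%) and 41.4% in A5-CKO 2 (40.5% to 42.3%). Cxcl2 took 4.06% in Ctrl 1 (3.67% to 4.47%) and 3.22% in Ctrl 2 (2.88% to 3.59%), but 12.6% in A5-CKO 1 (11.9% to 13.3%) and 21.8% in A5-CKO 2 (21.0% to 22.5%). These intervals cover counting error only. The share of Cxcl2 was higher in both A5-CKO libraries, whereas that of Cxcl15 did not divide the genotypes.

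**Figure D4:**
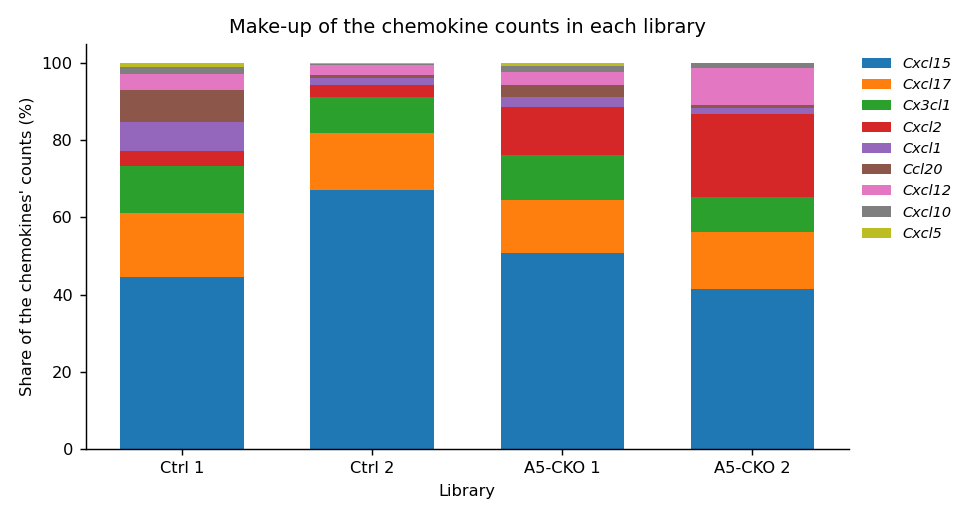
Stacked bars of the share of each gene in the summed counts of the chemokine genes (%), with 1 bar for each library. The Cxcl2 part is larger in A5-CKO, from 4.06% and 3.22% in Ctrl 1 and Ctrl 2 to 12.6% and 21.8% in A5-CKO 1 and A5-CKO 2, and Cxcl16 is too small to draw.

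The values of other cells and of stress responses were set beside Cxcl2, which neutrophils and macrophages also make. The summed level of 9 macrophage markers was 2683, 502, 346 and 1986 CPM in the library order Ctrl 1, Ctrl 2, A5-CKO 1, A5-CKO 2. It was highest in Ctrl 1, where Cxcl2 was low, and lowest in A5-CKO 1, where Cxcl2 was high. Chil3 was the largest part of this sum in every library, at 2084, 309, 112 and 1254 CPM. The members did not share 1 order. Cd68 followed that of the sum, at 157, 54.6, 34.1 and 153 CPM. Csf1r, at 94.4, 34.5, 51.6 and 130 CPM, was highest in A5-CKO 2 and lowest in Ctrl 2, as Cxcl2 was. Ptprc, the pan-leukocyte gene on that list, was at 50.9 and 22.5 CPM in Ctrl and at 84.3 and 82.8 in A5-CKO, or 1.19 as a log2 fold change (SE 0.42, adjusted p = 0.528 in edgeR), and so was above in both A5-CKO libraries as Cxcl2 was. Leaving out Ctrl 1 gave Ptprc a value of 1.95, and leaving out Ctrl 2 gave 0.67, on the log2 scale. The 8 neutrophil markers summed to 390, 686, 297 and 764 CPM in the same order, with overlapping genotypes. None of the macrophage and neutrophil markers was at 0 in all libraries, and the part of Ptprc-bearing cells in the level of Cxcl2 was not tested.

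Many genes known to respond to tissue digestion were highest in A5-CKO 1, but Junb, Socs3, Ier3 and Dnajb1 were not. Atf3, a stress-induced transcription factor, was at 118 and 123 CPM in Ctrl and at 1148 and 135 in A5-CKO 1 and A5-CKO 2 (log2 fold change 2.41, SE 0.87, adjusted p = 0.528 in edgeR). Fosb, an immediate early factor, was at 148 and 258 in Ctrl and at 1704 and 190 in A5-CKO. Of the 12 genes of this list that were tested, these were the 2 with an unadjusted p under 0.05, against 9.18% of all genes tested in either direction and 4.48% higher. In the whole list 8 were estimated higher and 4 lower in A5-CKO. Its 14 genes summed to 3854, 6518, 11624 and 3528 CPM, highest in A5-CKO 1 and lowest in A5-CKO 2. Without A5-CKO 1, the log2 fold change of Atf3 was 0.15 and that of Fosb was -0.11. For Cxcl2 it was 2.39 without A5-CKO 1 and 1.40 without A5-CKO 2, and the part of the stress genes in its level was not tested.

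Among 14 NF-kB factors and targets, 2 had an unadjusted p under 0.05, both higher in A5-CKO, against 9.18% of all genes tested in either direction and 4.48% higher. In this list 6 were estimated higher and 8 lower, with a median log2 fold change of -0.05. Tnfaip3, an inhibitor that NF-kB induces to limit its own activity, was at 36.6 and 32.1 CPM in Ctrl and at 116 and 65.1 in A5-CKO (log2 fold change 1.40, SE 0.36, adjusted p = 0.528 in edgeR). Rel, a subunit of NF-kB, was at 7.15 and 10.2 CPM in Ctrl and at 32.8 and 20.0 in A5-CKO (log2 fold change 1.60, SE 0.44, adjusted p = 0.528 in edgeR). For both, each A5-CKO library lay above each Ctrl library, as for Cxcl2, although A5-CKO 1 held more of them and A5-CKO 2 more Cxcl2. Without A5-CKO 1 the log2 fold changes of Tnfaip3 and Rel were 0.91 and 1.19. The part of NF-kB in the level of Cxcl2 was not tested. Of 14 receptors and adaptors upstream of chemokine genes, 1 had an unadjusted p under 0.05, close to the background of 9.18%. This was Il17rc, a subunit of the IL-17 receptor, at 82.3 and 63.5 CPM in Ctrl and at 46.3 and 34.7 in A5-CKO (log2 fold change -0.85, SE 0.32, adjusted p = 0.528 in edgeR). Of 8 regulators of the decay of chemokine mRNA, such as the tristetraprolin family, 0 had an unadjusted p under 0.05 in edgeR, with 4 estimated higher and 4 lower.

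**Figure D5:**
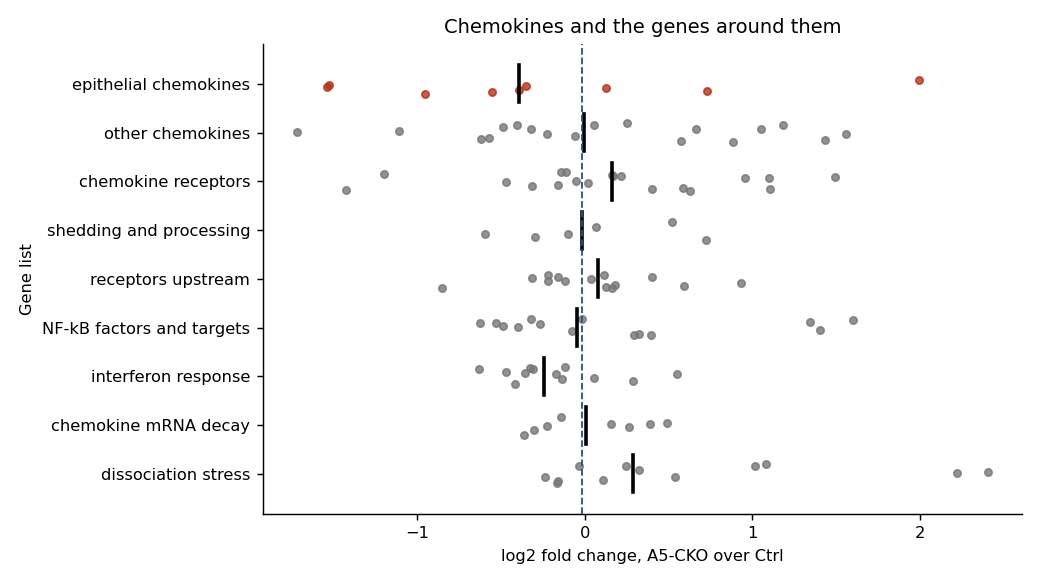
The log2 fold change of A5-CKO over Ctrl for every gene tested on 9 lists, with 1 point for each gene, a black bar for the median of the list and a dashed line at the median of all genes tested, -0.02. The medians lie between -0.39 for the epithelial chemokines and 0.29 for the dissociation stress genes, and Cxcl2 is the red point at 1.99.

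The rest of the chemokine system showed few differences. Of 26 other chemokines 18 had enough counts, with 9 estimated higher, 9 lower and a median log2 fold change of -0.0019, and 0 had an unadjusted p under 0.05 in edgeR. Those with the smallest p were Ccl4, Ccl6, Ccl3 and Cxcl9. Ccl4 and Ccl3, which draw monocytes and T cells, were at 4.91 and 1.98 and at 8.22 and 2.21 CPM in Ctrl, and at 7.24 and 7.05 and at 6.84 and 12.4 in A5-CKO. Ccl6, a macrophage chemokine, reached 800.4 CPM in Ctrl 1 and lay between 109 and 330.0 in the other libraries. Cxcl9, an interferon-induced relative of Cxcl10, was at 6.74 and 0.349 CPM in Ctrl and at 0.181 and 1.97 in A5-CKO.

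Of 21 chemokine receptors 19 were tested, and 2 had an unadjusted p under 0.05, both higher in A5-CKO. As a count this was close to the 9.18% of all genes tested in either direction, with 4.48% higher. They were Cxcr4, described above, and Ccr7, the receptor that leads dendritic cells and T cells to lymph nodes, at 5.09 and 5.59 CPM in Ctrl and at 22.1 and 7.91 in A5-CKO (log2 fold change 1.49, SE 0.59, adjusted p = 0.528 in edgeR). The value for Ccr7 was 0.56 without A5-CKO 1. Cxcr1 and Cxcr3 had negative log2 fold changes of -1.43 (SE 0.71) and -1.20 (SE 0.71) on levels under 4 CPM, with adjusted p of 0.540 and 0.578 in edgeR. For the 6 genes that shed or process chemokines, 0 had an unadjusted p under 0.05 in edgeR. Adam10 was at 122 and 76.9 CPM in Ctrl and at 123 and 163 in A5-CKO, with a log2 fold change of 0.52 (SE 0.35, adjusted p = 0.608 in edgeR). Timp3, an inhibitor of such enzymes, was at 198 and 169 in Ctrl and at 265 and 340.1 in A5-CKO (0.72, SE 0.32, adjusted p = 0.528 in edgeR). Rhbdf1 and Rhbdf2, which bring ADAM17 to the surface, had log2 fold changes of -0.60 and -0.29. The sign for Rhbdf2 turned to 0.02 with total counts only.

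AT2 markers themselves were estimated lower in A5-CKO, 9 of 9, with a median log2 fold change of -0.88, whereas 50.9% of all genes tested were estimated lower. Of the 9, 2 had an unadjusted p under 0.05 (Sftpb and Napsa), against 4.71% of all genes tested in that direction. The markers of transitional cells were estimated higher, 7 of 7, against 49.1% of all genes tested, with a median of 0.20 and 0 with an unadjusted p under 0.05 in edgeR. They summed to 3213, 1367, 2049 and 3439 CPM in the library order Ctrl 1, Ctrl 2, A5-CKO 1, A5-CKO 2. That sum did not divide the genotypes, and of the 7 genes only 1, Cdkn1a, did. Krt8 had a log2 fold change of 0.004. These values stand beside Cxcl15, Cxcl17 and Cx3cl1, whose log2 fold changes of -0.55, -0.39 and -0.35 lay between the median of all genes and that of the AT2 markers in the reported fit. After correcting for GC content and length, the 3 were at -0.89, -0.16 and -0.15, with the AT2 markers Sftpc and Sftpb at -0.47 and -0.78. Over 15237 genes the log2 fold change correlated with GC content at -0.37 and with length at 0.29 (Spearman). The place of the 3 genes thus depended on the processing. Club cells also make Cxcl15 and Cxcl17. The 6 club cell markers summed to 2900, 2761, 2011 and 1375 CPM in the library order Ctrl 1, Ctrl 2, A5-CKO 1, A5-CKO 2, a sum made up mostly of Scgb1a1 (2262, 1936, 1518 and 1012 CPM). The members of this list did not go one way. Cyp2f2 had a log2 fold change of -1.15 and Muc5b of 1.13, both with an unadjusted p under 0.05 and an adjusted p of 0.528 in edgeR, and 2 of the 6 were estimated higher and 4 lower. Their part in the values of Cxcl15 and Cxcl17 was not tested. Of the remaining lists, 5 of 7 AT1 markers were tested, with 4 estimated higher and a median of 0.76. Ager and Pdpn held too few counts to be tested. The AT1 marker estimated lower was Aqp5 (log2 fold change -0.79, SE 0.35, adjusted p = 0.528 in edgeR). It was the most abundant of the list, with 981, 951, 479 and 636 CPM in the same library order. All AT1 markers together summed to 1301, 1087, 1002 and 1025 CPM, so the sum did not follow the median. For lymphocyte markers, 6 of 6 were estimated lower with a median of -0.49. The 7 endothelial markers summed to 137, 213, 98.0 and 212 CPM, and 1 of them, Cldn5, was at 0 in all 4 libraries. Pecam1 and Cdh5 were at 29.7 and 26.4 CPM or more, so the 0 is not read here as a lack of the transcript, as with Cxcl16. No AT1, lymphocyte or endothelial marker had an unadjusted p under 0.05 in edgeR.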

How the data were processed

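AT2 cells sorted on day 14 after bleomycin were measured by RNA-seq in 2 Ctrl and 2 A5-CKO libraries. The deposited values are whole read counts per gene, which the authors made without pooling replicates. Per the submitters' processing notes, the tools were Trim Galore 0.6.10, HISAT2 2.2.1 on mm10 and featureCounts 2.0.3. Both sequencing paragraphs of the methods add the removal of duplicates. Counting appears there in the MeRIP-seq paragraph, and it is assumed here to hold for these libraries too. Removal of duplicates without molecular identifiers can lower the counts of short abundant transcripts.

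Counts were fitted here with edgeR 4.0.16 in R 4.3.3 (TMM factors, filterByExpr, glmQLFit, glmQLFTest, genotype as the only term), and p-values were adjusted over all 16661 genes tested. SE is the log2 fold change over the square root of F. Alternatives were other scaling factors and filters, DESeq2 1.42.0, limma 3.58.1 voom, a robust fit, a replicate block, splines on GC content and length (4 degrees of freedom each, 15237 genes, 91.5%), and each library left out (the lone library of a genotype is then assumed to vary like the other genotype). The script was tested on simulated data in which every gene had the same spread between libraries. At the common dispersion of these data, 0.173, it called 30 of 100 genes changed 4-fold and 93 of 100 changed 8-fold, with 5 false calls. Many changes of the size estimated for Cxcl2 would thus be missed. Named are the 10 chemokines, Alkbh5, defining markers, and up to 4 genes with the smallest p of each other list. The members and lists were chosen with earlier results of these data known. Coordinates and promoters are RefSeq on GRCm38.p6.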

Additional observations from a re-analysis of the deposited data

How the results depend on the processing

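In edgeR and limma voom 0 genes had an adjusted p under 0.05 under every alternative run, also with each library left out (0 to 0), while at an unadjusted p under 0.05 there were 1530 in the reported fit and 746 to 1877 in these. At an adjusted p under 0.05, DESeq2 gave 64 over these genes and 59 after its default filtering. There Cxcl2 passed, with log2 fold changes of 2.04 and 2.03 (adjusted p = 0.00793 and 0.0130), and so did Alkbh5, at -2.01 and -2.02 (adjusted p = 0.0214 and 0.0224). The cause was not tested. The number of the 9 chemokines with an unadjusted p under 0.05 was 1 as reported, 2 in both DESeq2 fits and after correcting for GC content and length, where Cxcl1 joined Cxcl2, and 1 to 3 with each library left out. Leaving out each library in turn moved their median log2 fold change between -0.58 and 0.76, the positive value being the one without Ctrl 1.

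Some log2 fold changes changed sign when a library was left out. The estimates then spanned -3.87 to 0.76 for Cxcl5, -2.55 to 1.00 for Ccl20, -2.14 to 0.67 for Ccl6 and -4.27 to 1.69 for Cxcl9, each positive without Ctrl 1. Cxcl10 spanned -0.78 (without Ctrl 2) to 2.58 and was -0.07 without A5-CKO 1. Fosb spanned -0.11 (without A5-CKO 1) to 3.04, Cxcl12 -0.38 (without A5-CKO 2) to 1.33, Col1a1 -2.10 (without A5-CKO 2) to 2.73 and Pecam1 -0.45 (without A5-CKO 2) to 0.33. With total counts only, Rhbdf2 was 0.022 and Epcam 0.16, and Epcam was 0.063 after correcting for GC content and length. Pecam1, at 0.0086 as reported, was -0.018 without a filter, -0.0063 in limma voom and -0.0072 with the replicate block. Cxcl5 and Cxcl9 gave no value where at least 10 counts were asked of every library. The other values, 532, kept their direction and their side of the threshold.

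The replicate numbers were not taken as pairs. Deviations from the group mean of libraries with the same number correlated at -0.36 over genes, and no label ties a number to a litter or batch. With the replicate block, 0 genes had an adjusted p under 0.05 and 754 an unadjusted p under 0.05, Cxcl2 was at 1.92 (adjusted p = 0.847 in edgeR), 1 of the 9 chemokines had an unadjusted p under 0.05, and their median was -0.40. With 2 libraries a group, differences of the size seen for Cxcl1 and Ccl20 were within the spread between Ctrl libraries, and Cxcl5 was also limited by depth.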
